A study of Mus musculus with 8 samples.

Results

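The effect of adding VE-821, an inhibitor of the kinase ATR, to the BET bromodomain inhibitor RVX2135 was measured in λ820, a line of mouse lymphoma cells in which Myc drives growth. Cells that received both drugs for 24 h, each at 10 µM, are called the combination here and were set against cells that received 10 µM RVX2135 alone for 24 h. Beside them stand cells given 10 µM VE-821 for 24 h and cells given the solvent DMSO, diluted 1000-fold, for 24 h, whose difference is the effect of the same ATR inhibitor without RVX2135. All 4 groups grew in RPMI medium with fetal bovine serum, all come from this 1 line, and each has 2 one-colour Illumina bead arrays. The features described are the named probes detected, with a detection p-value under 0.05, on both arrays of the combination or on both arrays of RVX2135. They number 10444 of 25697 probes and name 7530 genes of the 16593 on the array, of which 7529 were tested through the probe with the highest mean intensity. Nothing in the labels says whether the replicates are separate cultures. The p-values therefore measure only how far these samples lie apart, and that spread may be technical.

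ATR is the kinase that answers stalled replication forks. It signals in large part through the kinase CHK1 and holds back new origins and mitosis until the forks are repaired. BET proteins such as Brd2 read acetylated histones and help RNA polymerase II leave the promoter, and lymphomas driven by Myc are sensitive to their loss. The study joined both kinds of drug and looked at DNA damage, cell death, the secretory programme of senescent cells and stress of the endoplasmic reticulum (ER).

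More genes were called for VE-821 when RVX2135 was present. Of the 7529 genes, 4047 were called between the combination and RVX2135 (limma, adjusted p under 0.05), which is 53.8% of those genes and compares with 51.2% of all 7947 genes tested. Of these, 1970 rose (26.2%) and 2077 fell (27.6%), and the arrays did not overlap for 5748 genes (76.3%). A called change of at least 2-fold was seen for 344 rises (4.57%) and 349 falls (4.64%). Without RVX2135, VE-821 called 1783 of the same genes against DMSO (23.7%), with 901 higher (12%) and 882 lower (11.7%), and 165 rose (2.19%) and 55 fell (0.731%) at least 2-fold. That count of 1783 became 879 when VE-821 replicate 2 was left out, and 962 or 1105 when DMSO replicate 1 or 2 was left out. The median absolute log2 difference was 0.339 with RVX2135 and 0.182 without it, and the median standard error (SE) was 0.116. The median signed difference over all genes was -0.0022 with RVX2135 and -0.018 without it, and list medians below can be read against these. Differences, rises and falls given below without a unit are on the log2 scale. When arrays were scaled by their medians and not quantile-normalized, the median log2 difference was -0.08 and 37.8% of the calls were rises, against 48.7%. Without RVX2135 that share was 35.9%, against 50.5%. The share of calls was similar, 53.4% of 6645, among genes detected on all arrays of the combination and of RVX2135, where no gene was lifted over the background by 1 group.

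The effects of VE-821 with and without RVX2135 come from different arrays and can be set beside each other. They correlated across the genes with a Pearson coefficient of 0.56 and a Spearman coefficient of 0.49. Genes share arrays and are not independent replicates, so this is a description. In total 1161 genes were called in the same direction in both, 574 higher and 587 lower, which is 28.7% of the calls with RVX2135 and 65.1% of the calls without it. Another 118 genes were called in opposite directions, 33 of them higher with RVX2135 and 85 lower with RVX2135. The difference between the effects was called for 2204 genes (29.3%), with 1024 positive (13.6%) and 1180 negative (15.7%). Among genes called in the combination against RVX2135 and in this difference, 875 were rises that were larger with RVX2135 and 984 were falls that were larger with RVX2135.

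**Figure D1:**
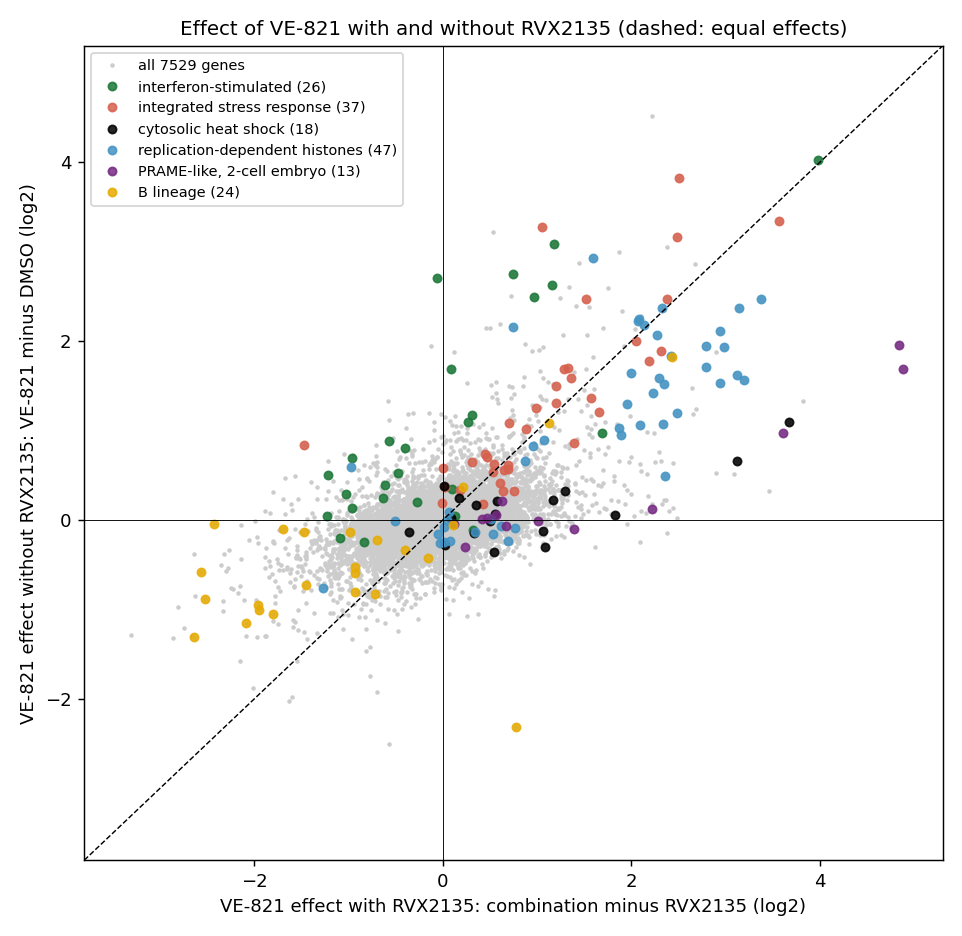
Each point is a gene, with the log2 effect of VE-821 in the presence of RVX2135 on the horizontal axis and without RVX2135 on the vertical axis; 6 gene lists are coloured. Most integrated stress genes lie near the dashed line of equal effects, most heat shock and PRAME-like genes to its right, most B lineage genes at the left and most interferon-stimulated genes above it.

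Markers were read as a check of the label. Of the defining B lineage genes 10 had a probe and 7 (Blnk, Cd22, Cd37, Cd79a, Cd79b, Ebf1 and Pou2af1) were detected on all 8 arrays. The other 3 were detected on no array. Markers of T and NK cells, 17 with a probe, summed to an intensity of 2277 to 2656 in the combination, against 538 to 584 with RVX2135, and 9 of them were detected on no array. Only Prf1 among them was detected on all 8 arrays, and it is described below. Myeloid markers, 18 with a probe, summed to 22.5 to 36.1 in the combination, against 36.8 to 37.7 with RVX2135, and 16 were detected on no array. Markers of erythroid cells and platelets summed to 1674 to 1891 in the combination and 1671 to 2323 with RVX2135, and only the transferrin receptor gene Tfrc among the 12 was detected on all 8 arrays. Stromal and endothelial markers summed to 214 to 296 in the combination and 443 to 470 with RVX2135. The part of these markers in the results below was not tested.

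Most measured genes of the integrated stress response rose. This programme is set off when eIF2 is phosphorylated, which lowers general translation and favours that of Atf4, a transcription factor that induces genes of amino acid supply and, through Ddit3 (CHOP), of cell death. Of 45 genes with a probe 37 were measured, and 32 rose, 1 fell and 4 were not called in the combination against RVX2135, with a median log2 difference of 0.88. The same genes responded without RVX2135, with 34 higher, none lower and a median of 1.02. The difference between the effects was called for 8 of the 37, positive for 2 and negative for 6.

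Ddit3 had log2 intensities of 11.86 and 11.75 in the combination, against 8.05 and 8.42 with RVX2135, 9.03 and 9.42 with VE-821 and 5.66 and 6.11 with DMSO. The combination arrays stand clear above all others and the groups do not overlap. It rose 11.9-fold with RVX2135 present (log2 3.57, SE 0.18, limma adjusted p = 7.31e-08) and by 3.34 without RVX2135, and the difference of 0.23 was not called (adjusted p = 0.536). Atf4 itself was at 11.96 and 11.94 in the combination and 10.43 and 10.74 with RVX2135, a rise of 1.36 (SE 0.12), against 1.59 without RVX2135. Atf3, a partner factor of the same programme, was at 8.92 and 8.54 in the combination and 6.40 and 6.43 with RVX2135, and rose by 2.31 (SE 0.14). Each of these factor genes was higher on both combination arrays than on any RVX2135 array.

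Some other members, such as Atf5 and Chac1, showed a smaller effect of VE-821 once RVX2135 was present. Nupr1, a small stress-induced chromatin protein, was at 6.80 and 7.12 in the combination and not above background with RVX2135, a rise of at least 4.8-fold (limma adjusted p = 2.12e-07). Such a bound sets the mean of the bright group against the lowest detected signal on the dim arrays, or the probe's own signal where that is higher. Without RVX2135 the rise of Nupr1 was at least 12.9-fold. Both values are lower bounds, so they do not rank its effects with and without RVX2135. Atf5, a factor translated like Atf4, rose by 2.49 with RVX2135 and by 3.16 without it, and the difference was -0.68 (SE 0.16, adjusted p = 0.00987). Trib3, a pseudokinase that restrains Atf4, and Chac1, which degrades glutathione, were looked up after their values were seen. Trib3 rose by 2.38 with RVX2135 and by 2.47 without it, a difference that was not called (adjusted p = 0.786). Chac1 rose by 1.05 and 3.28, with a difference of -2.23 for Chac1 (adjusted p = 1.19e-05). The single member that fell was Ddit4, which encodes the mTORC1 inhibitor REDD1. Its log2 intensities were 7.07 and 7.16 in the combination, 8.41 and 8.77 with RVX2135, 7.26 and 7.49 with VE-821 and 6.50 and 6.57 with DMSO. RVX2135 alone had the highest arrays, so VE-821 lowered Ddit4 by 1.47 with RVX2135 (adjusted p = 5.05e-06) and raised it by 0.84 without it (difference -2.31, adjusted p = 2.06e-05).

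The promoter of Nupr1 is shown because it holds letters of the composite element that ATF4 is known to bind with C/EBP factors. Promoter sequences printed here are the 250 bases before the annotated start site in RefSeq, mouse build GRCm38.p6, 5′ to 3′ on the gene's strand. Capitals mark the motif match. Motifs were counted over each whole stored promoter sequence, which was not cut at the start site, so counts can include bases after it. Nupr1 lies on the minus strand (chr7:126625471-126625720), and its match, on the opposite strand, starts 110 bases before the start site.
Nupr1: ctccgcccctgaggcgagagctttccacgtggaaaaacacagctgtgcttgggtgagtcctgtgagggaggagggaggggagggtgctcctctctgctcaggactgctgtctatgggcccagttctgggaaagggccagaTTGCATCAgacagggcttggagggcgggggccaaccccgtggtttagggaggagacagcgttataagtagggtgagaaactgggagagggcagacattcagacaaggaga
The motif searched was TGATGNAA on both strands, where N is any base. It occurred in 3.97% of 32851 promoters and in 2.86% of 6256 measured genes with a promoter sequence. Among list members with a promoter sequence it was found in 7 of 25, which were Asns, Atf3, Chac1, Herpud1, Jdp2, Nupr1 and Trib3. All 7 rose, beside 32 of the 37 measured list members. A match is a description of letters, not a binding site or a cause.

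**Figure D2:**
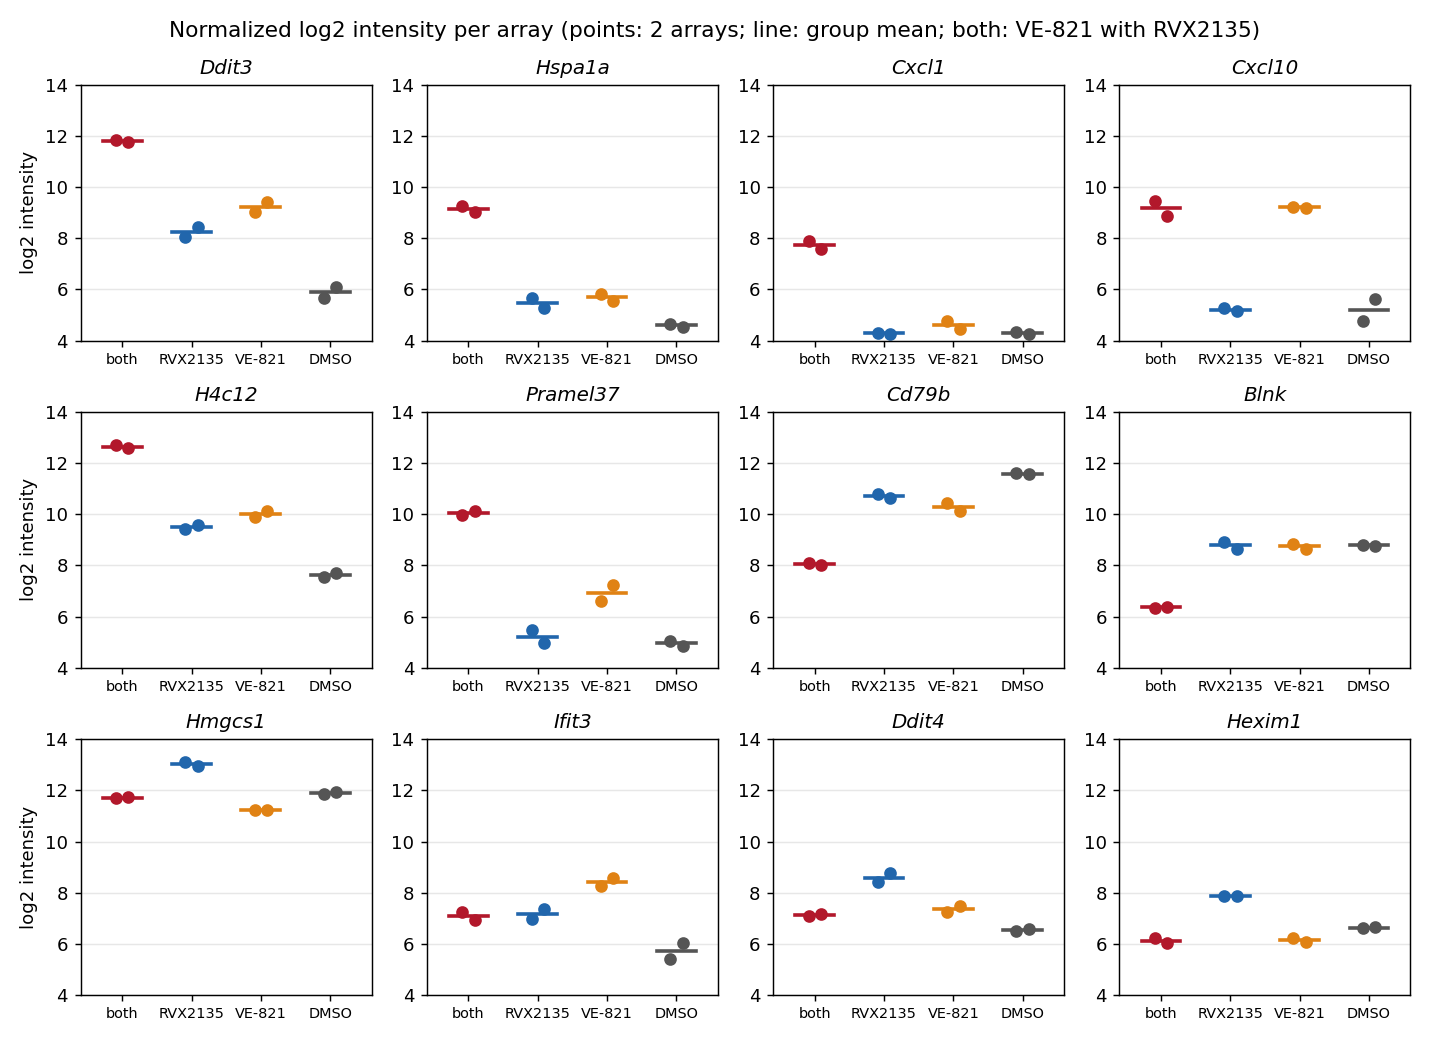
Normalized log2 intensity of 12 genes on each of the 8 arrays, with the combination (labelled both) at the left, then RVX2135, VE-821 and DMSO; points are the 2 arrays and the line their mean. Ddit3, Hspa1a, H4c12 and Pramel37 are highest in the combination, while Cd79b and Blnk are lowest there and Ifit3 is highest with VE-821 alone.

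Chaperones of the ER rose only in part. Of 28 measured genes for ER folding and degradation 14 rose, 3 fell and 11 were left uncalled (median log2 difference 0.24), and without RVX2135 8 rose and 1 fell (median 0.06). Hspa5, which encodes the ER chaperone BiP, was at 9.08 and 9.38 in the combination, 7.49 and 7.69 with RVX2135, 7.54 and 7.66 with VE-821 and 7.19 and 7.22 with DMSO. Only the combination arrays stand apart from the rest. It rose 3.12-fold (log2 1.64, SE 0.12, limma adjusted p = 1.29e-06), and the effect of VE-821 was 1.25 larger with RVX2135 than without it (adjusted p = 0.00054). Sel1l, a core subunit of the ER degradation machinery, rose by 1.58 (SE 0.11) on its brightest probe and by 1.14 and 0.53 on others, and the ER stress-induced gene Creld2 by 1.24 (SE 0.11). Calr, an ER chaperone of glycoproteins chosen after its values were seen, rose by 0.75 with RVX2135 and was -0.05 without it (not called), a difference of 0.80 (adjusted p = 0.00305). In the other direction Tram1, a helper of protein translocation into the ER, was at 9.02 and 9.26 in the combination and 11.58 and 11.24 with RVX2135. It fell by 2.27 (SE 0.14, adjusted p = 2.5e-07) and was -0.70 on another probe, and without RVX2135 it was -0.33, not called.

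The promoter of Hspa5 is shown for its ER stress element, the pair of letter groups that ATF6 and NF-Y are known to bind. It lies on the plus strand (chr2:34771840-34772089), and the capitals start 65 bases before the start site.
Hspa5: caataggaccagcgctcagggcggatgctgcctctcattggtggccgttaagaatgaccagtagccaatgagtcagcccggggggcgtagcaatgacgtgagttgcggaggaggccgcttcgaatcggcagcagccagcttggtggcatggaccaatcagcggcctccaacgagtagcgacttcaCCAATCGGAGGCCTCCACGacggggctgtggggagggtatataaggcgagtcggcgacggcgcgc
The letters searched on both strands were CCAAT and CCACG with 9 bases between them. They occurred in 0.119% of all promoters and in 0.176% of measured genes with a promoter sequence. Among list members they occurred in 7 of 23, 5 of which rose, among them Calr, Creld2 and Hspa5.

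Cytosolic heat shock genes were a group in which VE-821 acted mainly in the presence of RVX2135. Heat shock proteins refold damaged proteins in the cytosol and are induced by the factor HSF1. Of 18 measured genes 13 rose, 5 were not called and no fall was called (median 0.55). Without RVX2135 only 2 rose, again with no called fall (median 0.06), and the difference between the effects was positive and called for 11. Hspa1a, an inducible HSP70 gene, was at 9.27 and 9.01 in the combination, 5.68 and 5.26 with RVX2135, 5.83 and 5.55 with VE-821 and 4.65 and 4.54 with DMSO, where it was not above background. Both combination arrays lie far above the other 6. It rose 12.7-fold with RVX2135 (log2 3.67, SE 0.15, limma adjusted p = 3.09e-08) and at least 2.04-fold without it. The fitted difference of the effects was 2.57 (adjusted p = 2.36e-05), with DMSO at background. Hspa1a and its near-identical neighbour Hspa1b can share a probe's signal.

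The small heat shock protein gene Hspb1 was at 10.16 and 9.79 in the combination, 6.81 and 6.91 with RVX2135, 6.70 and 6.05 with VE-821 and 5.61 and 5.80 with DMSO. It rose 8.67-fold with RVX2135 (log2 3.12, SE 0.19) and by 0.66 without it (difference 2.45, adjusted p = 0.000111). Hsph1, an HSP110 nucleotide exchange factor, was at 10.97 and 11.15 in the combination and 9.31 and 9.16 with RVX2135, a rise of 1.82, against 0.06 without RVX2135 (not called). The HSP40 gene Dnajb1 rose by 1.06 with RVX2135 and was -0.12 without it, and Hsp90aa1, the inducible HSP90 gene chosen after its values were seen, rose by 1.09 and was -0.30, neither called without RVX2135. The differences were 1.76, 1.18 and 1.38 (adjusted p = 0.000157, 0.000199 and 0.000526). The letters GAA, TTC and GAA with 2 bases between neighbours, a form of the heat shock element, were found in 0.603% of all promoters. They were in 0.575% of measured genes with a promoter sequence and in 5 of 16 list members (Chordc1, Dnajb6, Hspd1, Hspe1 and Hsph1), of which 3 rose. The chaperonin TRiC, which folds actin and tubulin, had 8 measured subunits and none was called, from Cct7 at -0.23 to Cct6a at 0.16. Cct7 was called lower when combination replicate 2 was left out (log2 -0.36, limma adjusted p = 0.0472).

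Targets of NRF2, the factor that answers oxidative stress, rose in 9 and fell in 2 of 21 measured genes (median 0.26), against 5 higher and none lower without RVX2135. Hmox1, the haem oxygenase, was at 6.39 and 6.26 in the combination and 4.69 and 4.85 with RVX2135, where 1 of the arrays was above background, and rose 2.94-fold (log2 1.56, SE 0.11, limma adjusted p = 1.08e-06). Srxn1, which repairs peroxiredoxins, rose at least 2.24-fold and Osgin1 at least 1.53-fold, since both were not above background with RVX2135. Gclm, a subunit of the enzyme that starts glutathione synthesis, was at 9.23 and 8.98 in the combination and 8.21 and 8.03 with RVX2135, a rise of 0.99. Without RVX2135, Gclm was 0.03 and not called. Proteasome subunits rose in 11 and fell in 3 of 37 (median 0.04), a share of rises near the 26.2% of all genes, with Psmd4 at 0.64 and Psmc4 at 0.61, and 4 rose with median scaling. Without combination replicate 1 or 2, 7 rose, and without RVX2135 replicate 1, 6 rose.

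Inflammatory regulators rose under VE-821 whether or not RVX2135 was present. NF-kappaB is a family of factors held in the cytosol by inhibitors that are its own targets. Of 33 subunits, inhibitors and targets with a probe 22 were measured, of which 18 rose, 4 were not called and no fall was called (median 0.59). Without RVX2135 there were 17 rises and no called fall (median 1.27). The difference was positive for 3 and negative for 7 of them. The count of 18 rises fell to 11 without combination replicate 1.

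The subunit gene Relb was at 7.91 and 7.99 in the combination, 5.34 and 5.22 with RVX2135, 7.92 and 8.05 with VE-821 and 5.02 and 5.23 with DMSO. Both groups with VE-821 lie well above both groups without it. It rose 6.37-fold with RVX2135 (log2 2.67, SE 0.11, limma adjusted p = 3.09e-08) and by 2.86 without it, and the difference of -0.19 was not called (adjusted p = 0.401). Nfkb2, the partner of Relb, rose by 2.10 and 2.29. The costimulatory receptor gene Cd40 was at 7.96 and 7.90 in the combination, 5.60 and 5.39 with RVX2135, 8.22 and 8.36 with VE-821 and 6.41 and 6.53 with DMSO, and rose by 2.43 with RVX2135 and 1.82 without it (difference 0.61, adjusted p = 0.015). That difference was not called under 5 of 19 alternatives (0.21 to 0.71, adjusted p up to 0.356), and another probe rose by 0.86 with RVX2135. Cd40 is also a member of the B lineage list. Tnfaip3, which encodes the feedback inhibitor A20, rose at least 4.37-fold with RVX2135 (adjusted p = 1.53e-07). The inhibitor gene Nfkbia, chosen after its values were seen, rose by 2.04 with RVX2135 and by 2.14 without it.

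Some chemokine genes were detected on both arrays of the combination and of no other group. Chemokines draw leukocytes and are part of the senescence-associated secretory programme. Cxcl1 was at 7.88 and 7.59 in the combination and not above background with RVX2135 (4.30 and 4.25) or DMSO (4.31 and 4.25), and 1 of the VE-821 arrays (4.76 and 4.46) was above it. It rose at least 8.19-fold in the combination against RVX2135 (limma adjusted p = 2.05e-08). Cxcl2 was at 6.84 and 6.63 in the combination and not above background on any other array, a rise of at least 4.09-fold (adjusted p = 3.3e-08). Ccl4 was at 6.58 and 6.43 in the combination and 5.31 and 5.55 with VE-821, and not above background with RVX2135 or DMSO. It rose at least 3.49-fold with RVX2135 and at least 1.7-fold without it, and another probe rose by 0.91 with RVX2135. Of 52 secretory genes with a probe only 15 were measured, and 11 of them rose and 2 fell, with a median of 0.81, or 0.46 with genes below background at their bound. A gene that enters only because the combination lifted it over the background has to rise, and with detection required on all 8 arrays 5 rose.

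The promoters of Cxcl1 and Cxcl2 are shown because both hold the same kappaB letters close to the start site and both genes were detected on both arrays in the combination alone. Both lie on the plus strand, Cxcl1 at chr5:90890995-90891244 and Cxcl2 at chr5:90903649-90903898, and the capitals start 71 and 97 bases before the start sites.
Cxcl1: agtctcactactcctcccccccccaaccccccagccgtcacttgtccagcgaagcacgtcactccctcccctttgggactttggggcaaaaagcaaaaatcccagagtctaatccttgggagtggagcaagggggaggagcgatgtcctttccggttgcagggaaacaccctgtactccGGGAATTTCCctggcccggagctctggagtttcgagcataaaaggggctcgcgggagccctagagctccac
Cxcl2: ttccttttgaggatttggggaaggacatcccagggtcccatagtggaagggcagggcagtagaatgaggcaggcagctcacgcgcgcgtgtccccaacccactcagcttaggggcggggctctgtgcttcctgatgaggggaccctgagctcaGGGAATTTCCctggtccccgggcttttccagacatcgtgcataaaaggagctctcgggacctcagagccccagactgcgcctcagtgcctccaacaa
The letters searched on both strands were GGGA and TTTCC with 1 base between them. They were found in 0.411% of all promoters and in 0.464% of measured genes with a promoter sequence. Of 16 members of the NF-kappaB list 2 had them (Nfkb2 and Nfkbia), both of which rose. Nfkb2 and Nfkbia also rose without RVX2135, so genes with these letters did not share one pattern over the 4 groups.

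Interferon-stimulated genes split. They are switched on after interferon or cytosolic nucleic acid is sensed. Of 26 measured genes 8 rose, 11 fell and 7 were not called in the combination against RVX2135, beside 26.2% and 27.6% of all genes. Their median was -0.16 (-0.08 at the bounds). Without RVX2135 17 of the 26 rose, none fell and the median was 0.61. The difference between the effects was negative and called for 20 genes and positive for 1. With detection required on all 8 arrays 7 of the genes fell.

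Cxcl10, a chemokine gene induced by interferon and by NF-kappaB, was at 9.47 and 8.89 in the combination, 5.26 and 5.14 with RVX2135, 9.23 and 9.18 with VE-821 and 4.77 and 5.61 with DMSO. The groups with VE-821 do not overlap with those without it. It rose 15.8-fold with RVX2135 (log2 3.98, SE 0.24, limma adjusted p = 2.5e-07) and by 4.02 without it, and the difference of -0.04 was not called (adjusted p = 0.941). Ifit3, an RNA-binding antiviral protein gene, was at 7.26 and 6.95 in the combination, 6.95 and 7.36 with RVX2135, 8.28 and 8.56 with VE-821 and 5.40 and 6.01 with DMSO. Combination and RVX2135 arrays overlap, while the VE-821 arrays are the highest and the DMSO arrays the lowest. VE-821 therefore moved it by -0.06 with RVX2135 (adjusted p = 0.839) and by 2.71 without it (adjusted p = 3.07e-06), a difference of -2.77 (SE 0.29, adjusted p = 8.13e-05), the largest negative difference among genes whose symbol is not a clone or predicted-gene name.

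Isg15, a ubiquitin-like protein gene chosen after its values were seen, was at 8.89 and 8.55 in the combination and 7.55 and 7.52 with RVX2135, and at 9.52 and 9.34 with VE-821 and 5.97 and 6.72 with DMSO. It rose in both settings, by 1.18 and 3.09, with a difference of -1.90 (limma adjusted p = 0.000741). Eif2ak2, which encodes the RNA sensor kinase PKR, was at 6.44 and 6.73 in the combination and 7.70 and 7.91 with RVX2135. It fell by 1.23 (SE 0.15, adjusted p = 4.65e-05) and was 0.05 without RVX2135. Dhx58, which encodes the RNA helicase LGP2, was not above background in the combination and fell at least 2.03-fold, while it rose by 0.50 without RVX2135. The antiviral gene Samd9l, chosen after its values were seen, fell by 1.02 (difference -1.31, adjusted p = 0.00163). Irgm1, an interferon-induced GTPase, rose by 1.69 on its brightest probe, but another probe of the gene fell by 1.39, so its direction is uncertain.

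The promoters of Cxcl10 and Ifit3 are shown because they share the interferon response letters while the genes responded differently to VE-821 beside RVX2135. Cxcl10 lies on the minus strand (chr5:92348890-92349139), with a match on the opposite strand that starts 213 bases before the start site. Ifit3 lies on the plus strand (chr19:34583279-34583528), with matches that start 156 and 122 bases before it.
Cxcl10: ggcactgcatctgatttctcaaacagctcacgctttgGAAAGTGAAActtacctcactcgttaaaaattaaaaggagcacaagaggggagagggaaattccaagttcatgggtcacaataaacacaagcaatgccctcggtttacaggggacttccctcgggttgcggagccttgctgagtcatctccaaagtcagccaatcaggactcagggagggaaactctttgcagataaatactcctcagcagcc
Ifit3: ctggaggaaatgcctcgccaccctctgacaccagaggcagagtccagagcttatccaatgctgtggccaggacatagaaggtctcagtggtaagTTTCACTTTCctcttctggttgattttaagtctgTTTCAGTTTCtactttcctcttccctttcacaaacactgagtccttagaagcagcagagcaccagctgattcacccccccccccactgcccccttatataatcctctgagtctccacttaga
The letters searched on both strands were TTTC and TTTC with 2 bases between them. They were found in 3.44% of all promoters and in 3.53% of measured genes with a promoter sequence. Of 22 list members 11 had them, and 5 of these rose in the combination against RVX2135. The letters were thus found both in genes that rose and in genes that did not.

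**Figure D3:**
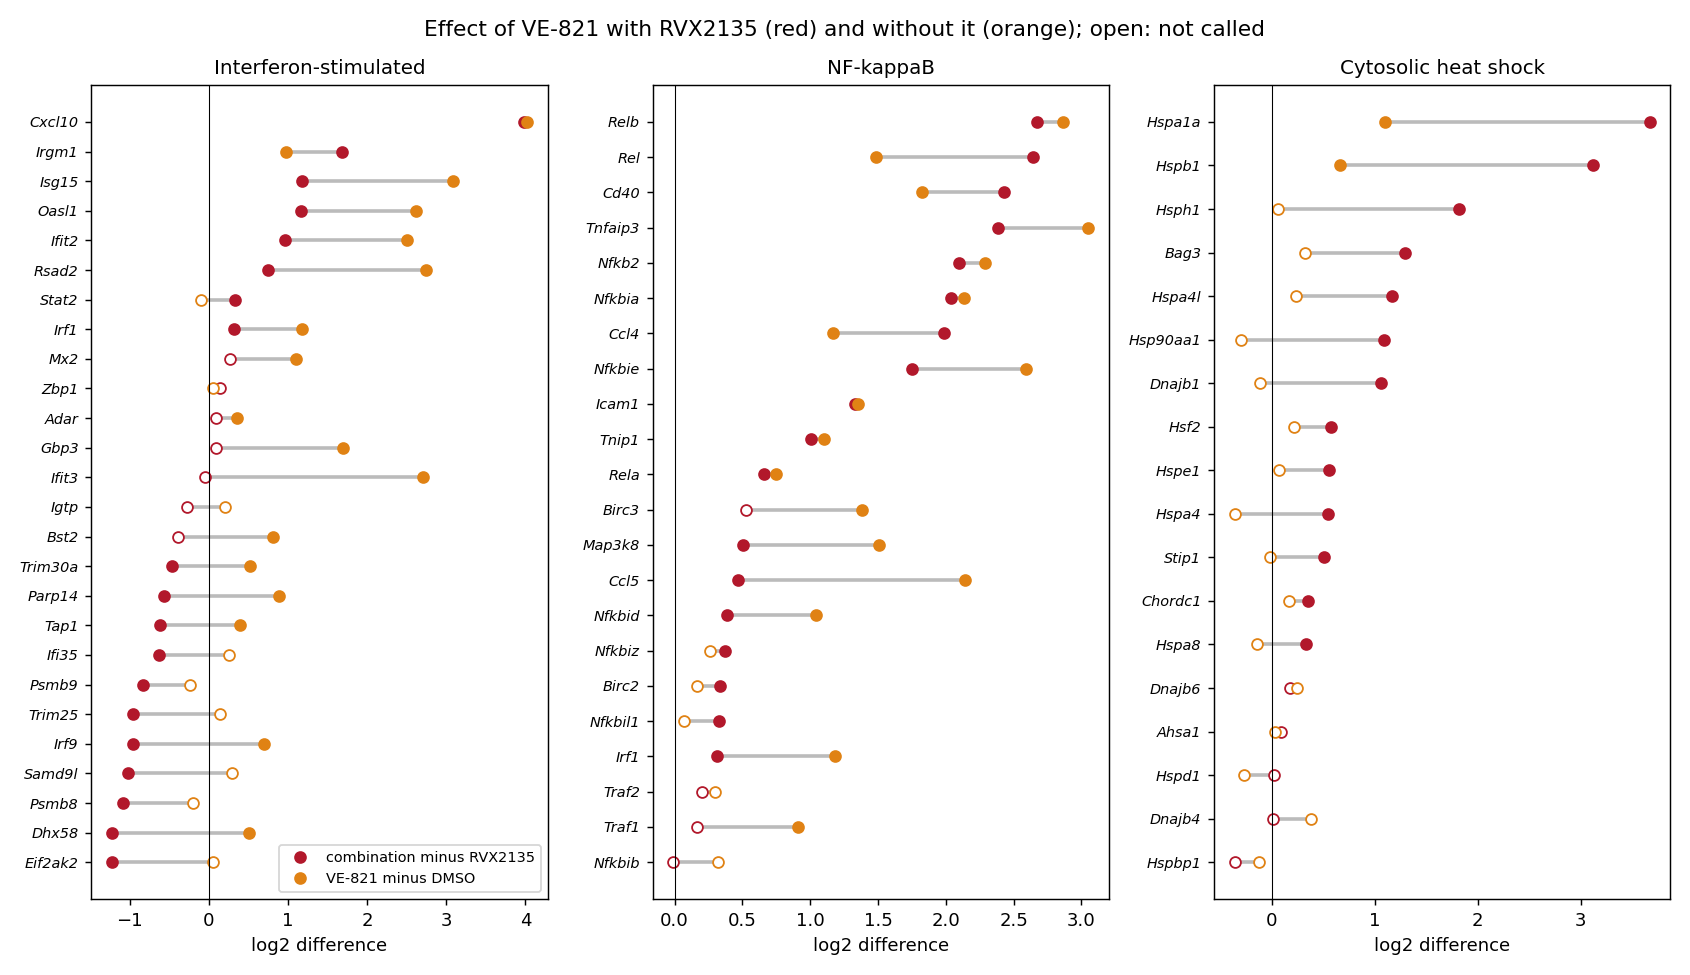
Log2 effect of VE-821 with RVX2135 (red) and without it (orange) for every measured gene of 3 lists; filled points were called by limma and open points were not. In the interferon panel 20 of 26 differences were negative and called, the NF-kappaB panel has no called fall, and in the heat shock panel 11 of 18 differences were positive and called.

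Antigen presentation genes were called in both directions beside RVX2135. MHC class I molecules show peptides that the immunoproteasome cuts and TAP carries into the ER. Of 13 measured genes 4 rose, 5 fell and 4 were not called (median -0.02), beside 26.2% and 27.6% of all genes. Without RVX2135 9 were higher and none lower (median 0.82), beside 12% and 11.7% of all genes, and 10 differences were negative and called. The heavy chain gene H2-D1 was at 7.85 and 7.79 in the combination and 6.64 and 6.56 with RVX2135 and rose by 1.22 (SE 0.12, limma adjusted p = 8.33e-06). The light chain gene B2m rose by 0.90 (SE 0.10) and H2-K1 by 1.03, and near-identical class I genes can share a probe's signal. The immunoproteasome subunit gene Psmb8 was at 5.41 and 5.82 in the combination and 6.74 and 6.67 with RVX2135 and fell by 1.09 (adjusted p = 6.09e-05). The peptide transporter gene Tap2 fell by 1.13 and was 0.26 without RVX2135, and the class I-like gene H2-T23 was -0.02 with RVX2135 and rose by 1.19 without it, both chosen after their values were seen. Another probe of H2-T23 fell by 1.08 in the combination against RVX2135.

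In MHC class II presentation, 2 of 7 measured genes rose and 5 fell, beside 26.2% and 27.6% of all genes. Cd74, the invariant chain, was at 7.76 and 7.90 in the combination, 6.28 and 6.16 with RVX2135, 9.44 and 9.45 with VE-821 and 8.35 and 8.39 with DMSO. RVX2135 alone had the lowest arrays. It rose 3.06-fold with RVX2135 (log2 1.61, limma adjusted p = 3.56e-07), and H2-Eb2, above background on 1 of the combination arrays, fell by 1.38 (SE 0.18). Only 2 of the falls were called without combination replicate 1.

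Replication-dependent histone genes had the largest list median, 1.95. They are expressed in S phase, and most of their transcripts end in a stem-loop and have no poly(A) tail. Of 47 measured genes 37 rose, 3 fell and 7 were not called. H2bc18 was at -0.97 on its brightest probe and at 2.71 on another, so its direction is uncertain. Without RVX2135 32 rose and 1 fell, with a median of 1.07, and the difference was positive for 24 and negative for 3. H4c12 was at 12.70 and 12.60 in the combination, 9.43 and 9.58 with RVX2135, 9.88 and 10.14 with VE-821 and 7.55 and 7.72 with DMSO. The arrays order as combination, VE-821, RVX2135 and DMSO with no overlap. It rose 8.86-fold with RVX2135 (log2 3.15, SE 0.12, limma adjusted p = 2.05e-08) and by 2.38 without it (difference 0.77, adjusted p = 0.0071).

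Further histone genes among the largest rises were H4c18 at 3.37, H4c2 at 3.20 and H2bc3 at 3.12, with differences of 0.90, 1.62 and 1.50 (limma adjusted p = 0.00535, 0.000669 and 7.47e-05). The linker histone gene H1f1 was at 9.12 and 9.07 in the combination and 6.15 and 6.15 with RVX2135, a rise of 2.95, and H4c11 rose by 2.99. A probe may pick up several histone genes of nearly the same sequence, so these genes are not separate measurements. Replacement histones, whose transcripts are polyadenylated, went the other way, with 5 of 7 lower and none higher. H2aj, a replacement H2A, was at 6.05 and 5.96 in the combination and 7.27 and 7.02 with RVX2135 and fell by 1.14 (SE 0.12). Macroh2a1, H1f10 and H3f3a also fell (log2 -0.77, -0.88 and -0.65).

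Most measured germline and early-embryo genes rose beside RVX2135. PRAME-like genes and Zscan4 genes are known from the germ line and from the 2-cell mouse embryo. Of 23 such genes with a probe 13 were measured, 11 rose and none fell (median 0.68, or 0.57 at the bounds). Genes such as Zscan4c and Usp17la are measured here only because the combination lifted them over the background, so they had to rise. Without RVX2135 3 rose, and the difference was positive and called for 8. Pramel37 was at 9.97 and 10.13 in the combination, 5.47 and 4.95 with RVX2135, 6.59 and 7.22 with VE-821 and 5.06 and 4.83 with DMSO. The combination arrays are far above the VE-821 arrays, which in turn are above the rest. It rose 28.7-fold with RVX2135 (log2 4.84, SE 0.21, limma adjusted p = 3.13e-08) and by 1.96 without it (difference 2.88, adjusted p = 7.13e-05).

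Pramel39 had the largest rise among genes whose symbol is not a clone or predicted-gene name. It was at 9.44 and 9.68 in the combination and 4.77 and 4.59 with RVX2135, where 1 of the arrays was above background, and rose by 4.88 (SE 0.15, limma adjusted p = 9.67e-09). Zscan4c was at 8.12 and 8.15 in the combination and not above background with RVX2135, a rise of at least 10.8-fold (adjusted p = 3.74e-09). Usp17la, a deubiquitinase gene of a repeated family, was above background only in the combination, a rise of at least 3.61-fold. Pramel37 and Pramel39, like other members of these families, are similar in sequence and can share signal. With detection required on all 8 arrays 2 genes of the list rose.

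Most measured B lineage genes fell. They encode the B cell receptor, its signalling chain and the factors that keep a B cell a B cell. Of 24 measured genes 18 fell, 3 rose and 3 were not called in the combination against RVX2135, with a median of -0.96, and without RVX2135 13 fell and 3 rose (median -0.55). The difference was negative for 12 and positive for 2. The 10 defining genes with a probe summed to an intensity of 993 to 1111 in the combination, against 5719 to 6583 with RVX2135, and to 5287 to 5958 with VE-821, against 10490 to 12460 with DMSO. In bulk RNA, fewer cells that express a gene and less RNA of it per cell cannot be told apart.

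Cd79b, a signalling chain of the B cell receptor, was at 8.11 and 8.03 in the combination, 10.80 and 10.62 with RVX2135, 10.44 and 10.14 with VE-821 and 11.62 and 11.57 with DMSO. The combination arrays are the lowest by a wide margin. It fell 6.24-fold with RVX2135 (log2 -2.64, SE 0.12, limma adjusted p = 4.53e-08) and was -1.31 without it, also called (difference -1.33, adjusted p = 0.000322). Blnk, the adaptor that links the receptor to its kinases, was at 6.35 and 6.37 in the combination, 8.93 and 8.64 with RVX2135, 8.83 and 8.66 with VE-821 and 8.80 and 8.77 with DMSO. Only the combination stands apart. It fell 5.38-fold (log2 -2.43, SE 0.12, adjusted p = 6.11e-08), was -0.04 without RVX2135 (adjusted p = 0.852), and the difference was -2.39 (adjusted p = 9.33e-06).

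Pou2af1, a coactivator of octamer factors in B cells, was at 8.44 and 8.70 in the combination and 11.19 and 11.09 with RVX2135. It fell 5.92-fold (log2 -2.57, SE 0.11, limma adjusted p = 4.13e-08), with a difference of -1.99. Ikzf1, the lymphoid factor Ikaros, fell by 2.52 on its brightest probe, while another probe was -0.33 and not called (adjusted p = 0.12). Vpreb3, which encodes a chaperone-like protein of pre-B cells, went against the list. It was at 5.10 and 5.41 in the combination and not above background with RVX2135 (4.46 and 4.49), but at 7.04 and 6.59 with VE-821 and 9.08 and 9.16 with DMSO. VE-821 thus raised it at least 1.47-fold with RVX2135 and lowered it by 2.31 without, a difference of 3.09 (adjusted p = 9.02e-06) that rests on arrays at background. Among plasma cell genes 5 of 8 fell and 2 rose, with Slamf7 lower by at least 2.47-fold, Mzb1 at -1.14 and the factor gene Irf4 at -1.22.

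**Figure D4:**
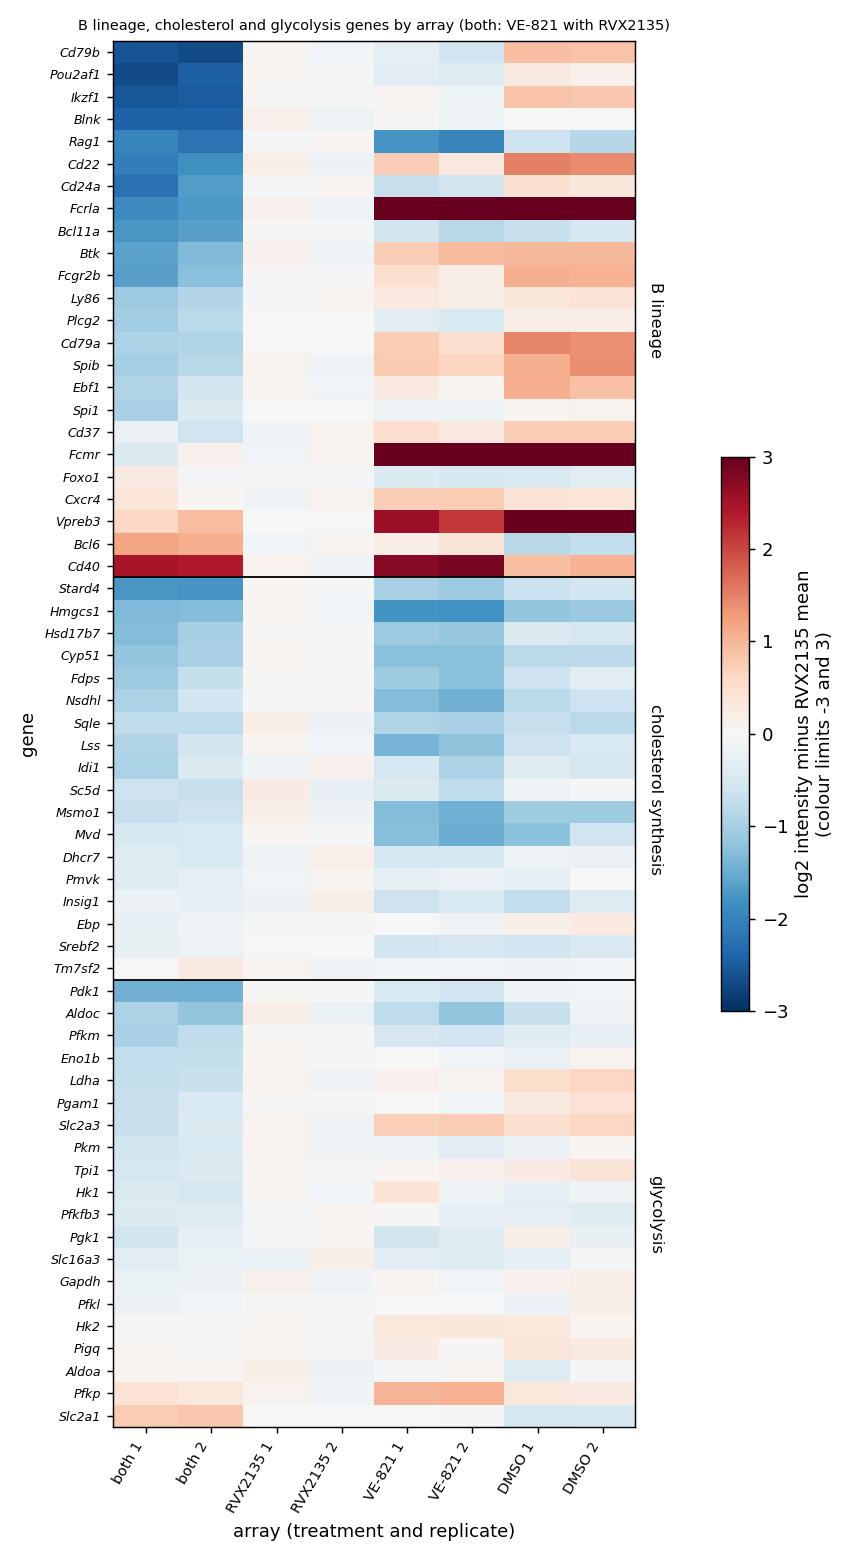
Log2 intensity on each array minus the mean of the RVX2135 arrays for B lineage, cholesterol synthesis and glycolysis genes, with the combination (both) at the left. Blue marks lower values, and 18 of 24 B lineage genes and 14 of 18 cholesterol genes were called lower in the combination. So were 12 of 20 genes of the glycolysis list, which includes Pigq, not a glycolytic gene.

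Genes of lipid and energy metabolism were called lower as well. The mevalonate pathway builds cholesterol and is driven by SREBP2. All 18 genes with a probe were measured, of which 14 fell, 4 were not called and no rise was called (median -0.68). Without RVX2135 9 fell and none rose (median -0.40), and 5 differences were negative and called. Hmgcs1, which makes HMG-CoA, was at 11.70 and 11.74 in the combination, 13.11 and 12.96 with RVX2135, 11.25 and 11.22 with VE-821 and 11.85 and 11.92 with DMSO. RVX2135 alone had the highest arrays, and the combination arrays lie just below those of DMSO. It fell 2.49-fold with RVX2135 (log2 -1.31, SE 0.10, limma adjusted p = 1.5e-06) and was -0.65 without it, also called.

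Stard4, a carrier of sterols, was at 8.65 and 8.63 in the combination and 10.46 and 10.35 with RVX2135 and fell by 1.76 (SE 0.10, difference -1.33). The sterol enzyme genes Cyp51 and Hsd17b7 fell too (log2 -1.08 and -1.15). The letters TCACNCCAC, a form of the sterol element, were in 1.24% of all promoters and 1.42% of measured genes with a promoter sequence. Of 15 list members 1 had them, Hmgcs1. Acss1, a mitochondrial enzyme that activates acetate, had the largest fall by the same measure of symbols. It was at 5.07 and 5.43 in the combination, 8.53 and 8.56 with RVX2135, 7.12 and 6.94 with VE-821 and 8.32 and 8.31 with DMSO, and fell 9.84-fold (log2 -3.30, SE 0.13, limma adjusted p = 2.05e-08). The stearoyl-CoA desaturase gene Scd2 was at 6.22 and 6.58 in the combination and 9.27 and 9.24 with RVX2135 and fell 7.25-fold (log2 -2.86, SE 0.16).

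In the glycolysis list 12 of 20 measured genes fell and 2 rose (median -0.43). The 20 include Pigq, a gene of GPI anchor synthesis and not of glycolysis, so the counts are not of glycolytic genes alone. Pdk1, the kinase that blocks pyruvate entry into mitochondria, was at 8.26 and 8.27 in the combination and 9.75 and 9.67 with RVX2135 and fell by 1.44 (SE 0.10, limma adjusted p = 6.44e-07). Pfkm and the lactate dehydrogenase gene Ldha fell (log2 -0.87 and -0.69), while Slc2a1, the glucose transporter GLUT1, rose by 0.78. Genes of the respiratory chain and ATP synthase were lower in 28 and higher in 1 of 71 (median -0.22), with Ndufc1 at -0.72, Atp5j at -0.71 and Uqcr11 at -0.61. That count was 13 without combination replicate 1 and 11 without RVX2135 replicate 2. The single rise was Cox6a2, a subunit known from muscle. It was at 9.66 and 9.66 in the combination, 7.45 and 7.44 with RVX2135, 11.41 and 11.48 with VE-821 and 6.87 and 6.99 with DMSO. VE-821 raised it in both settings, by 2.22 with RVX2135 and by 4.52 without it (difference -2.30, adjusted p = 7.22e-06).

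Lysosome and autophagy genes rose in 15 and fell in 9 of 37 (median 0.12), among them Sqstm1, an autophagy receptor, at 1.70, and on the falling side the hydrolase genes Gusb at -1.32 and Ctsc at -1.16. Cytosolic ribosomal protein genes were mostly not called, 49 of 56, with 2 higher and 5 lower, and the falls of Rpl27a (-0.45) and Rpl4 (-0.33) were lost without combination replicate 1 (limma adjusted p = 0.144 and 0.0974), when 2 falls were called, as without RVX2135 replicate 2. Genes of ribosome biogenesis and growth that Myc is known to drive fell in 18 and rose in 10 of 56 (median -0.08). Over all genes 27.6% fell and 26.2% rose. Pes1 was at -0.83 and Paics at -0.86.

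**Figure D5:**
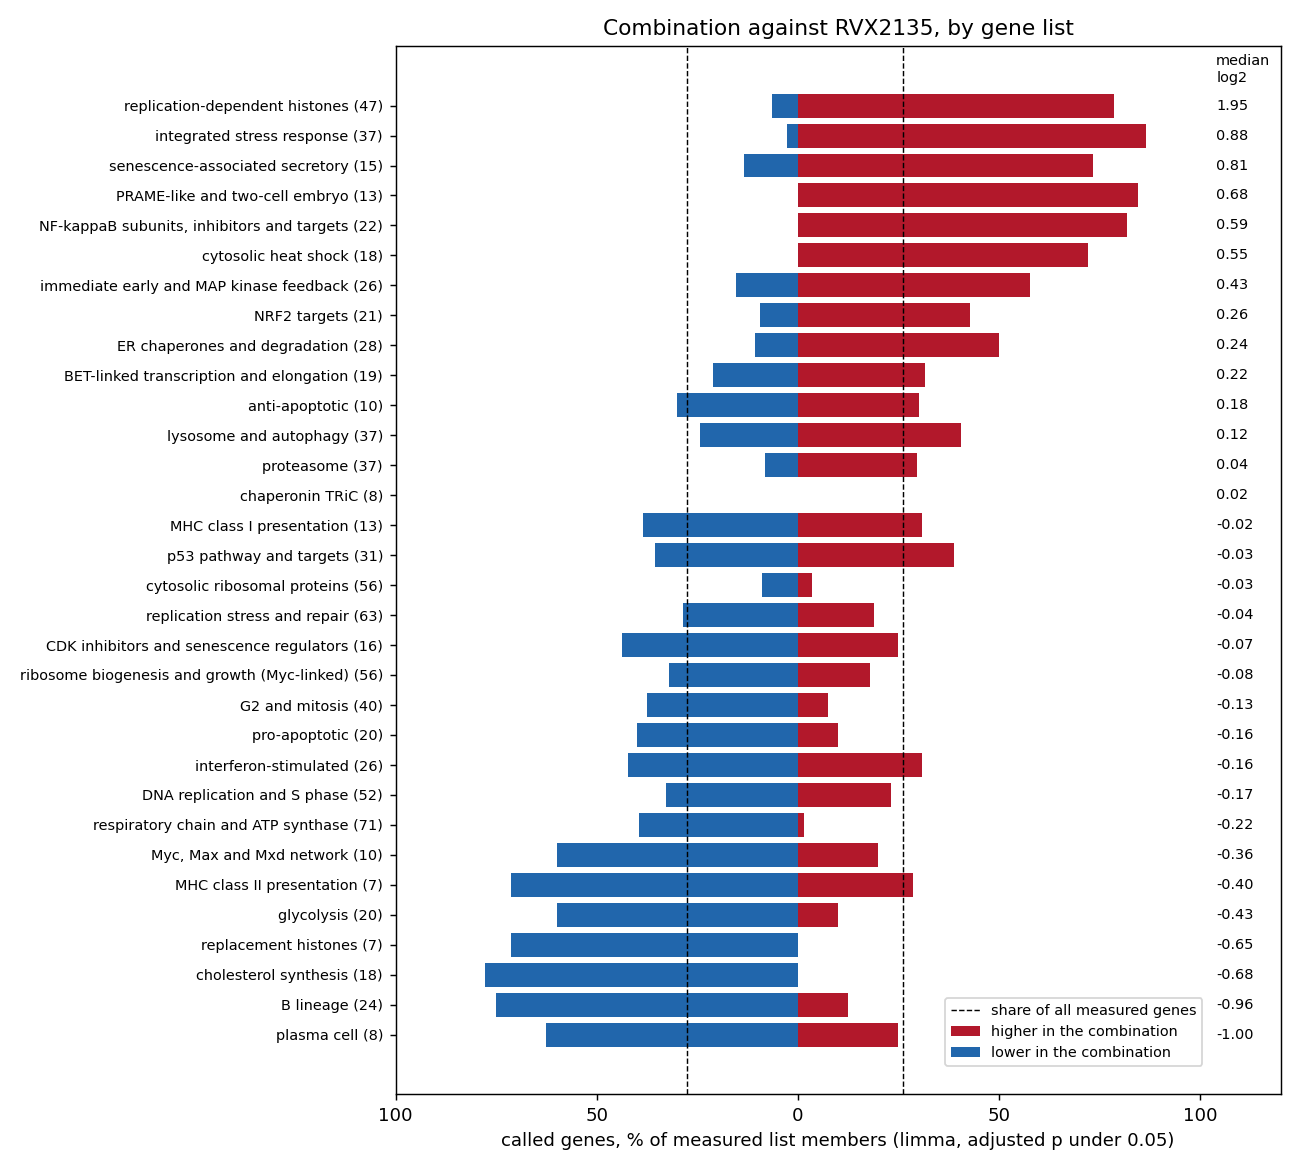
Share of measured list members called higher (red, to the right) and lower (blue, to the left) in the combination against RVX2135, with the median log2 difference at the right and the number measured in brackets. Dashed lines mark the shares over all 7529 genes, 26.2% higher and 27.6% lower.

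Replication and cell cycle genes moved in both directions. Replication licensing loads the MCM helicase before S phase, and ATR restrains origin firing afterwards. Of 52 measured S phase genes 12 rose, 17 fell and 23 were not called (median -0.17), shares near the 26.2% and 27.6% of all genes, against 1 higher and 29 lower without RVX2135 (median -0.34). The difference was positive for 13 and negative for 3. Tk1, thymidine kinase, was at 7.46 and 7.58 in the combination and 9.32 and 9.32 with RVX2135 and fell 3.47-fold (log2 -1.80, SE 0.12, limma adjusted p = 4.76e-07). The activator gene E2f2 fell (log2 -1.47), as did Rrm2, a subunit of ribonucleotide reductase (log2 -1.11). The licensing factor gene Cdc6 and E2f1, both chosen after their values were seen, rose by 0.54 and 0.69. Their differences were 0.88 and 0.80 (adjusted p = 0.00236 and 0.00252), and another probe of Cdc6 was -0.04.

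In the G2 and mitosis list 15 of 40 genes fell and 3 rose (median -0.13), against none higher and 26 lower without RVX2135 (median -0.45), and the count of 15 was 9 without combination replicate 1. Cdc25b, a phosphatase that starts mitosis, was at 4.79 and 5.02 in the combination and 6.69 and 6.61 with RVX2135 and fell 3.35-fold (log2 -1.75, SE 0.11, limma adjusted p = 3.73e-07). Cdca3 and Bub3 fell as well (log2 -0.88 and -0.68). Chek1, the kinase that ATR activates, was at 4.96 and 5.17 in the combination and 5.02 and 5.14 with RVX2135. The arrays overlap and the difference of -0.01 was not called (SE 0.11, adjusted p = 0.924). These Chek1 values lie near the lowest detected signal of the same arrays, 4.66 to 4.71, which limits what they can show. Atr and Brd3 have no measured value in this comparison.

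Of 63 genes for replication stress and repair 12 rose and 18 fell (median -0.04), beside 26.2% and 27.6% of all genes, against 1 higher and 18 lower without RVX2135, and the 18 falls became 11 without combination replicate 1 and 8 without RVX2135 replicate 1. Bard1, the partner of BRCA1, was at 6.16 and 6.40 in the combination and 4.88 and 4.65 with RVX2135, where 1 of the arrays was above background, and rose 2.85-fold (log2 1.51, SE 0.16, limma adjusted p = 2.11e-05). The nuclease gene Mus81, chosen after its values were seen, rose by 0.67 and was -0.25 without RVX2135 (difference 0.93, adjusted p = 0.000773). Xrcc6, which encodes the end-joining protein Ku70, was at 10.53 and 10.63 in the combination and 11.54 and 11.58 with RVX2135 and fell by 0.98 (adjusted p = 1.25e-05). The uracil glycosylase gene Ung fell by 0.89.

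The list of cell cycle inhibitors and senescence regulators was mixed, with 4 of 16 genes higher and 7 lower, beside 26.2% and 27.6% of all genes. Its members include genes that are not inhibitors, such as Ezh2, Glb1 and Lmnb1. Cdkn1c, which encodes p57, was at 8.23 and 8.31 in the combination, 6.01 and 5.78 with RVX2135, 4.97 and 4.88 with VE-821 and 4.94 and 5.20 with DMSO. The combination arrays are the highest and those of VE-821 and DMSO overlap. It rose 5.19-fold with RVX2135 (log2 2.38, SE 0.12, limma adjusted p = 9.09e-08) and was -0.14 without it (difference 2.52, adjusted p = 9.02e-06). Cdkn1a, which encodes p21, was at 6.05 and 6.32 in the combination and 5.17 and 5.22 with RVX2135 and rose 1.98-fold (log2 0.99, SE 0.11), and Cdkn2b rose by 0.95. Pml fell by 1.00.

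Genes of the p53 pathway were called in both directions, with 12 of 31 higher and 11 lower, beside 26.2% and 27.6% of all genes. Without RVX2135 13 were higher and 3 lower, beside 12% and 11.7% of all genes. The growth arrest genes Sesn1, Trp53inp1 and Btg2 were each highest with RVX2135 alone. Trp53inp1 was at 8.97 and 8.57 in the combination, 10.32 and 10.09 with RVX2135, 8.70 and 8.57 with VE-821 and 8.65 and 8.58 with DMSO, and fell by 1.43 (SE 0.14, limma adjusted p = 9.01e-06, difference -1.45). Sesn1 and Btg2 fell similarly (log2 -1.45 and -1.43). Pmaip1, which encodes the BH3-only protein NOXA, was at 6.14 and 6.05 in the combination and not above background with RVX2135, a rise of at least 2.63-fold (adjusted p = 1.3e-06).

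Of 20 measured pro-apoptotic genes 8 fell, 2 rose and 10 were not called (median -0.16). Bbc3, which encodes PUMA, was at 10.01 and 9.89 in the combination, 10.45 and 10.61 with RVX2135, 10.37 and 10.35 with VE-821 and 8.80 and 9.25 with DMSO. All groups with a drug lie above DMSO, and the combination lies below both single drugs. VE-821 lowered it by 0.58 with RVX2135 (limma adjusted p = 0.00492) and raised it by 1.33 without it, and the difference was -1.91 (adjusted p = 8.13e-05). The fall was -0.37 and not called on another probe (adjusted p = 0.0905). Bmf, another BH3-only gene, was at 5.24 and 5.28 in the combination and 6.81 and 6.84 with RVX2135 and fell 2.97-fold (log2 -1.57, SE 0.12). Bcl2l11, which encodes BIM and was chosen after its values were seen, fell by 0.34 on its brightest probe with RVX2135 and rose by 0.77 without it (difference -1.11, adjusted p = 0.000425), and the fall was not called without combination replicate 1 (adjusted p = 0.0608). Other probes of Bcl2l11 were at 1.69 and 1.00, both called higher, and at -0.26, not called, so its direction is uncertain. Of 10 survival genes 3 rose and 3 fell, beside 26.2% and 27.6% of all genes. Among them Mcl1 fell by 0.94 and the kinase gene Pim3 rose by 1.08.

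Genes tied to BET proteins were called about as often as all genes. Of 19 measured 6 rose and 4 fell, beside 26.2% and 27.6% of all genes, and with median scaling 3 rose. Hexim1, which holds P-TEFb inactive and is known to rise under BET inhibition, was at 6.21 and 6.04 in the combination, 7.89 and 7.85 with RVX2135, 6.24 and 6.06 with VE-821 and 6.62 and 6.65 with DMSO. RVX2135 alone stands above the other 3 groups. It fell 3.35-fold (log2 -1.75, SE 0.11, limma adjusted p = 3.07e-07) and was -0.48 without RVX2135, also called (difference -1.26, adjusted p = 0.000207). Brd2 was at 11.66 and 11.58 in the combination, 10.90 and 10.75 with RVX2135, 10.43 and 10.44 with VE-821 and 10.25 and 10.09 with DMSO. It rose 1.74-fold with RVX2135 (log2 0.80, SE 0.11), and the germline BET gene Brdt rose by 1.61.

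Myc was at 7.04 and 6.80 in the combination and 6.66 and 6.84 with RVX2135. The arrays overlap, and the difference of 0.17 was not called (SE 0.12, limma adjusted p = 0.236). Of 10 genes of its network 6 fell and 2 rose, and none rose with median scaling. Mxd4, a Max partner that opposes Myc, was at 6.63 and 6.18 in the combination, 8.06 and 8.10 with RVX2135, 6.52 and 6.26 with VE-821 and 6.49 and 6.91 with DMSO, and fell 3.19-fold (log2 -1.67, SE 0.17, difference -1.36). Max fell by 0.71, with another probe at -0.20 and not called. Immediate early genes rose in 15 and fell in 4 of 26 (median 0.43), with the AP-1 subunit gene Jund at 2.10 (SE 0.14) and with Klf6 at 1.91.

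Some of the largest changes lay outside these lists. Reln, a secreted glycoprotein, was at 8.64 and 8.96 in the combination and 11.79 and 11.42 with RVX2135 and fell 7.01-fold (log2 -2.81, SE 0.15, limma adjusted p = 1.02e-07). St3gal6, a sialyltransferase, was at 5.10 and 4.91 in the combination and 7.59 and 7.68 with RVX2135. It fell 6.19-fold, and the effect differed by -2.25 from that without RVX2135 (adjusted p = 9.02e-06). Tmem229b (log2 -2.74, and -1.28 on another probe), Lrmp, an ER membrane protein of lymphocytes (log2 -2.66), and the carbonyl reductase gene Cbr3 (log2 -2.35) fell, while Clec2d, a C-type lectin gene, fell at least 4.99-fold. Prf1, which encodes perforin, was at 11.20 and 11.56 in the combination, 9.06 and 9.07 with RVX2135, 9.10 and 9.25 with VE-821 and 8.50 and 8.52 with DMSO. It rose 4.98-fold (log2 2.32, SE 0.13, adjusted p = 1.3e-07) while Cd2, another T and NK cell gene, was not above background in the combination and fell at least 1.56-fold. Lrrc14b was at 6.96 and 6.93 in the combination, 6.13 and 6.69 with RVX2135, 7.71 and 8.30 with VE-821 and 4.59 and 4.98 with DMSO. Its effect of 0.54 with RVX2135 was not called (adjusted p = 0.0532), against a rise of 3.22 without it (difference -2.68, adjusted p = 0.000131). On DMSO replicate 1 Lrrc14b lay below the lowest detected signal (4.66), so that rise and the difference rest partly on background.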

How the data were processed

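RNA of 8 samples in 4 groups was measured on Illumina mouse bead arrays with 25697 probes. The deposited probe table holds the authors' intensity values, not normalized per the file headers, with a detection p-value per probe and array that the authors deposited beside each intensity. The submitters' processing notes name GenomeStudio, and a second deposited table with normalized intensity values served as an alternative. The labels' protocols do not state background correction.

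From the deposited intensities, limma 3.58.1 in R 4.3.3 applied neqc, which estimates background from the detection p-values, adds an offset of 16, quantile-normalizes the arrays and takes log2. Of the probes 23978 were named through the annotation table, 23962 of them with symbols updated by gene identifier and 16 with the symbol as given, and 1719 had no name. The probe with the highest mean over the 8 arrays stood for a gene. All 8 arrays entered 1 limma fit with a mean per group and no covariates, over 7947 genes detected on both arrays of at least 1 of the 4 groups, and Benjamini-Hochberg adjustment at 0.05 ran over all of them. Genes called here passed that threshold, and 7529 met the detection rule in the combination or RVX2135. The comparisons were the combination minus RVX2135, VE-821 minus DMSO, and their difference. Of 2029 genes with several kept probes, 67 had probes called in opposite directions.

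Named genes are the 12 largest rises and falls with no overlap between arrays, up to 4 members of each list by adjusted p, 11 genes set by name, and the 5 largest differences in each direction. Others are said to have been chosen after their values were seen. The members and lists were chosen with earlier results of these data known. Tested on simulated data for the combination minus RVX2135 (7947 genes, 100 changed at each size), the fit recovered 51 of the changes of log2 0.5 and 95 of the changes of log2 1, with 9 false calls. Far fewer genes were changed there than were called in the measured arrays, so recovery in the measured arrays may differ. Between 11012 and 11478 probes were detected per array, replicate arrays correlated at 0.995 to 0.996, and the number of arrays limits the precision. Deviations of same-numbered replicates correlated weakly or not at all (-0.031 to 0.178). These values gave little sign of pairing, but they cannot exclude that same-numbered samples were handled as a set. Promoters are from RefSeq, GRCm38.p6.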

Additional observations from a re-analysis of the deposited data

Results flagged for a closer look

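For 77 of the genes named above the difference between the effects of VE-821 with and without RVX2135 was followed through the alternatives, and for 65 of them it was called by the interaction term of the limma fit (adjusted p under 0.05 over all tested genes). Further named genes, such as Cbr3 and Clec2d, also passed that threshold and are not counted here. The values below are log2 differences, the effect with RVX2135 minus the effect without it, and their standard errors lie between 0.14 and 0.30. Over all measured genes this difference was called for 29.3%, so single genes here are read against that share. For Pramel39, Zscan4c, Usp17la, Cxcl1, Cxcl2, Ccl4, Hspa1a, Vpreb3, Nupr1, Tnfaip3, Pmaip1 and Dhx58 at least 1 group was not above background on either array, so their differences are fitted values that depend on the background and carry no size. The differences of Tnfaip3 and Pmaip1 were not called under 8 of 17 and 8 of 18 alternatives (adjusted p up to 0.0701 and 0.223). Those of Cd40, Cd74, Brd2 and Cdkn1a were each not called under 5 of 19, that of H2-K1 under 3, that of Ccl4 under 2 and those of Cdc6 and Ikzf1 under 1.

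Positive differences were found for the PRAME-like and early-embryo genes Pramel39 3.19, Pramel37 2.88, Zscan4c 2.64 and Usp17la 2.10. The chemokine genes were Cxcl1 3.13, Cxcl2 2.46 and Ccl4 0.82. Among chaperones they were Hspa1a 2.57, Hspb1 2.45, Hsph1 1.76, Hsp90aa1 1.38 and Dnajb1 1.18 in the cytosol and Hspa5 1.25 and Calr 0.80 in the ER. Histone genes gave H4c2 1.62, H2bc3 1.50, H1f1 1.41, H4c11 1.05, H4c18 0.90 and H4c12 0.77. Cell cycle and repair genes gave Cdkn1c 2.52, Mus81 0.93, Cdc6 0.88, E2f1 0.80 and Cdkn1a 0.60. Other positive values were Vpreb3 3.09, Prf1 1.65, Jund 1.55, Irgm1 0.72, Cd40 0.61, Cd74 0.54 and Brd2 0.53.

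Negative differences were found for the interferon-stimulated and antigen presentation genes Ifit3 -2.77, Isg15 -1.90, Dhx58 -1.72, Tap2 -1.39, Samd9l -1.31, Eif2ak2 -1.27, H2-T23 -1.21, Psmb8 -0.89 and H2-K1 -0.64, with Tnfaip3 at -0.67. B lineage genes gave Blnk -2.39, Pou2af1 -1.99, Ikzf1 -1.64 and Cd79b -1.33. Stress response genes gave Ddit4 -2.31, Chac1 -2.23, Nupr1 -1.32 and Atf5 -0.68. Genes of p53 and cell death gave Bbc3 -1.91, Trp53inp1 -1.45, Bcl2l11 -1.11 and Pmaip1 -0.54. Metabolic genes gave Acss1 -2.01, Scd2 -1.54, Stard4 -1.33 and Hmgcs1 -0.66, and the respiratory subunit Cox6a2 gave -2.30. Other negative values were Lrrc14b -2.68, St3gal6 -2.25, Tram1 -1.94, Reln -1.84, Mxd4 -1.36 and Hexim1 -1.26.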

How the results depend on the processing

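The 4047 calls between the combination and RVX2135 were 3518 with median scaling, 3917 with the authors' normalized values and 4196 with a trended prior, and 3345 to 3975 with 1 array left out. With 1 array left out, the 1783 calls between VE-821 and DMSO were 879 to 1850 and the 2204 calls of the difference were 1531 to 1985. The fit on only the arrays compared made 3734 calls, and testing every kept probe made 5392 of 10444. Positive differences numbered 622 with median scaling, against 1024. With the replicate number as a block (replicate block) the counts were 4155, 1866 and 2251, and among the genes followed 4 calls changed. Lrrc14b was called in the combination against RVX2135 (adjusted p = 0.0126), and between VE-821 and DMSO Srxn1 and Pecam1 were called (adjusted p = 0.0428 and 0.0471) and Myc was not (adjusted p = 0.052). Direction reversed for Pim1, which was -0.27 with detection on all 8 arrays and on its next probe, and -0.28 in both for VE-821 minus DMSO. With 1 array left out Pim1 ran from -0.27 (without VE-821 replicate 2) to 1.19, and from -0.080 to 1.38 for VE-821 minus DMSO. It also reversed on the next probe for Irgm1 (-1.39, and -1.59 for the difference), Bin1 (0.15), Cdc6 (-0.036) and Klf4 in VE-821 minus DMSO (-0.085). On the next probe Bbc3, Ikzf1, Max, Mnt, Ncapd2, Pecam1, Recql4, Rpl27a, Rpl4 and Bcl2l11 lost their call between the combination and RVX2135. The cause was not tested. Fbln1 and Lrrc14b lay near the threshold in most settings. List counts that moved by over 1.5 times included those of ribosome biogenesis (higher 5 with median scaling or without combination replicate 1, against 10), immediate early genes (higher 9 with detection on all 8 arrays, against 15, and lower 1 to 2 without combination replicate 2 or either RVX2135 replicate, against 4), plasma cell genes (lower 3 with detection on all 8 arrays, against 5) and respiratory genes (lower 18 with only the arrays compared, against 28), beside those given with the lists. Counts of 3 or fewer moved as well. Higher counts were 5 for survival genes (against 3) with quantile normalization alone, an offset of 50 or a trended prior, and 0, 1 or 5 for G2 and mitosis (against 3). They were 0 or 1 for ribosomal proteins and the Myc network (against 2), 1 for pro-apoptotic, plasma cell and glycolysis genes (against 2), 2 for respiratory genes (against 1) and 1 for replacement histones (against 0). Lower counts were 1 for proteasome genes (against 3), 1 for NRF2 targets (against 2), 1 for heat shock genes (against 0) and 0 for T and NK cell markers (against 1). Probes near the background limit what the arrays can show. For 162 of the called falls and 169 of the called rises the lower group was not above background on either array.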
